A study of Mus musculus with 12 samples.

Results

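Mammalian cells make most of their ATP with the 5 protein complexes of oxidative phosphorylation, and the genes described here are their subunits encoded in the nucleus, measured in CD4+ T cells purified from lymph nodes of mice. The members were chosen by a rule on names that used no measured value, though earlier results of these data were known. The rule takes the Ndufa, Ndufb, Ndufc, Ndufs and Ndufv genes of complex I and the Sdha to Sdhd genes of complex II. It also takes the Uqc genes and Cyc1 of complex III. The widely expressed Cox genes of complex IV and the Atp5 genes of complex V complete it. Of 78 annotated genes under these names, 75 had a row of their own among the 45669 rows of the count table: 35 in complex I, 4 in complex II, 9 in complex III, 11 in complex IV and 16 in complex V. The cells came from 12-week-old C57BL6 mice that were either wild type (WT/WT) or homozygous for Anaef (Anaef/Anaef), a point-mutant allele of Rasgrp1, whose protein activates Ras when the T cell receptor signals. Total RNA of untreated cells gave 4 libraries per genotype, numbered 1 to 4 in WT and 5 to 8 in Anaef. Fragments of mRNA that ribosomes protect from nuclease (RPF) were sequenced from bulk pools of purified cells after a short cycloheximide treatment, with 2 pools per genotype, called 1B and 2B in WT and 3B and 4B in Anaef. The labels do not say which animals entered which pool, so the p-values measure the spread between these libraries, which may be partly technical.

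Complex I takes electrons from NADH, complex II takes them from succinate, and complex III passes them through cytochrome c to complex IV, which reduces oxygen. Complexes I, III and IV pump protons across the inner mitochondrial membrane, and complex V lets protons flow back through a ring of c subunits and makes ATP in its catalytic head. Resting T cells draw much of their ATP from this chain, and T cells activated through their receptor enlarge their mitochondria. Except for complex II, each complex joins subunits made in the cytosol with subunits made on mitochondrial ribosomes, so that cytosolic translation supplies only a part of it.

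The c subunit shows how the 3 genes Atp5g1, Atp5g2 and Atp5g3, which code for the same mature protein behind different import sequences, can be told apart only by their nucleotides. Below are the last 90 coding bases of each before the stop codon, 5′ to 3′ on the coding strand, from the GENCODE M21 transcripts on GRCm38. Capitals mark bases that differ from Atp5g1.
Atp5g1: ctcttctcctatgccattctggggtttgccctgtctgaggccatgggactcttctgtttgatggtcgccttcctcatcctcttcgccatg
Atp5g2: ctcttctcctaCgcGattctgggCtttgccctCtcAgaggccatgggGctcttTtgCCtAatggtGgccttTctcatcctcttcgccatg
Atp5g3: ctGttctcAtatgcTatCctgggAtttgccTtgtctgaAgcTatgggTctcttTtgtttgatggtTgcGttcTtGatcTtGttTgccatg
These stretches lie in single exons at chr11:96073107-96073196, chr15:102663017-102663106 and chr2:73908596-73908685, all on the minus strand. Atp5g2 differed from Atp5g1 at 12 bases and Atp5g3 at 17 bases, and the translated stretches differed at 0 residues. The 3 parent genes thus differ in sequence, but all coding 28-base words of Atp5g1 and of Atp5g2 (100% in both) also occur in exons of other annotated genes, against 0% for Atp5g3. Over all members, 38 of 75 shared at least 5% of their coding 28-base words with other genes, most often processed pseudogenes, so levels of these members are uncertain where the counting could split reads.

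The libraries held 15326842 to 40046317 counts in total RNA and 2868943 to 7009342 in RPF, and all subunits together took 0.444% ± 0.0743 (SD, n = 4) of the nuclear protein-coding counts in WT total RNA. The WT total RNA library of replicate 3 was the shallowest and held 27.8% mitochondrial counts, against 16.4% to 25.0% in the other 7. Of the T cell markers, Cd4 was at 1047 to 2068 CPM (read counts scaled to library size within an assay) in total RNA, Cd8a was at most 2.21 CPM in any library, and Cd8b1 was at 4.65 to 14.8 CPM in total RNA and 14.9 to 19.9 CPM in RPF. Summed plasma cell markers (6 measured) were at 22312 and 11208 CPM in the WT RPF pools and at 6667 and 2283 CPM in the Anaef pools. In total RNA the same sum was 1197 to 5336 CPM in WT and 376 to 790 CPM in Anaef. The B cell sum, at 470 to 1322 CPM over all libraries, overlapped between genotypes. Myeloid and dendritic markers (7 measured) summed to 31.2 to 39.2 CPM in WT total RNA and 13.2 to 25.3 CPM in Anaef, and in RPF to 57.5 to 81.8 and 25.2 to 57.6 CPM. In RPF, erythroid markers (3 measured) summed to 7.5 to 10.8 CPM in WT and 1.7 to 5.6 CPM in Anaef. Endothelial and stromal markers (4 measured) summed to 161 to 176 and 147 to 157 CPM in RPF. Nearly all of that sum was Pecam1, at 161 and 175 CPM in WT and 146 and 156 CPM in Anaef. Cdh5, Col1a1 and Pdpn were at most 0.73 CPM in any RPF pool. Summed plasma cell markers thus moved with genotype in both assays, summed myeloid markers in total RNA, and summed erythroid markers and the single gene Pecam1 in RPF. Their part in the subunit values was not tested. In such bulk libraries fewer cells of a type and less RNA per cell cannot be told apart.

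Levels in RPF were compared between genes as CPM per kilobase of coding sequence, since a longer coding sequence holds more ribosomes. In complex I, Ndufa4 stood highest in WT, at 937 and 992 in the pools, and Ndufa10 lowest, at 6.1 and 7.1. Ndufa4, named for complex I, is now placed in complex IV by structural work. The next member, Ndufa13, was at 269 and 346, so Ndufa4 lay above all other complex I genes in both pools. The core genes given here lay in the lower part of this range. Accessory genes such as Ndufb9, at 53.9 and 47.5, and Ndufs6, at 29.7 and 20.2, lay there too, so this position was not particular to the core. Ndufs1, the largest subunit with iron-sulfur clusters, was at 62.5 and 56.1, and Ndufv1, which holds the NADH site, at 61.7 and 68.9. Ndufs3 was at 89.3 and 91.1, and Ndufv2 at 91.9 and 96.3. Ndufs7 was at 81.5 and 120, and Ndufs8 at 108 and 123. Ndufs1 and Ndufv1 overlapped each other in their values, and both lay below Ndufs3, Ndufv2, Ndufs7 and Ndufs8 in both pools, with no test made of this order.

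Complex II has 4 genes and no mitochondrially encoded part. Its flavoprotein Sdha was at 292 and 306 RPF CPM per coding kilobase in WT, and its iron-sulfur protein Sdhb at 250 and 212. The membrane anchors were lower, with Sdhc at 174 and 204 and Sdhd at 82.3 and 173. In this order each gene lay above the next in both pools. In complex III, Uqcrh, the hinge protein at cytochrome c1, had the highest mean, at 445 and 320 in the pools. Cyc1, cytochrome c1 itself, had the lowest mean, at 62.4 and 99.1, and overlapped Uqcrfs1, at 81.2 and 98.7. Uqcr10, a small subunit beside cytochrome c1, was at 407 and 333 and overlapped Uqcrh. Uqcrc2, a core protein of the matrix arm, was at 182 and 212.

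In complex IV the small subunits Cox6c and Cox6b1 were highest and overlapped, with Cox6c at 629 and 669 and Cox6b1 at 655 and 618. Cox4i1, the ubiquitous form of the largest nuclear-encoded subunit, was lowest at 19.8 and 18.2. The paralogs Cox7a2, a complex IV subunit, and Cox7a2l, a factor that joins complexes III and IV into supercomplexes, stood in opposite order in the assays. In WT RPF, Cox7a2 was at 323 and 427 and Cox7a2l at 42.6 and 64.9. In WT total RNA per kilobase of transcript, Cox7a2 was at 6.53 ± 1.55 and Cox7a2l at 183 ± 66.9 (SD, n = 4). Cox7a2l shares 81.7% of its coding 28-base words with the annotated genes Gm10242 and Gm6969, and Cox7a2 shares 16.7% with Gm13433.

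Complex V held the highest levels of the module. Atp5e, the small epsilon subunit of the central stalk, was at 1108 and 1009 RPF CPM per coding kilobase in WT. The catalytic head is built from alternating alpha (Atp5a1) and beta (Atp5b) subunits around gamma (Atp5c1). Atp5b was at 688 and 758, Atp5a1 at 426 and 492, and Atp5c1 at 200 and 178. Atp5d, the delta subunit of the same stalk, was at 201 and 251. Among the genes of the c ring, Atp5g3 was at 457 and 481, Atp5g1 at 147 and 183, and Atp5g2 at 80.9 and 126. Atp5g3 was thus the highest of the 3 in both pools, and Atp5g2 the lowest. Atp5g1 and Atp5g2 share 100% of their coding 28-base words with other genes and Atp5g3 0%. This order is therefore uncertain where the counting could split reads. Atp5f1, the peripheral stalk subunit b, was at only 5.8 and 7.6, and Atp5s, a coupling factor that is no structural subunit, at 2.5 and 2.0.

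**Figure D1:**
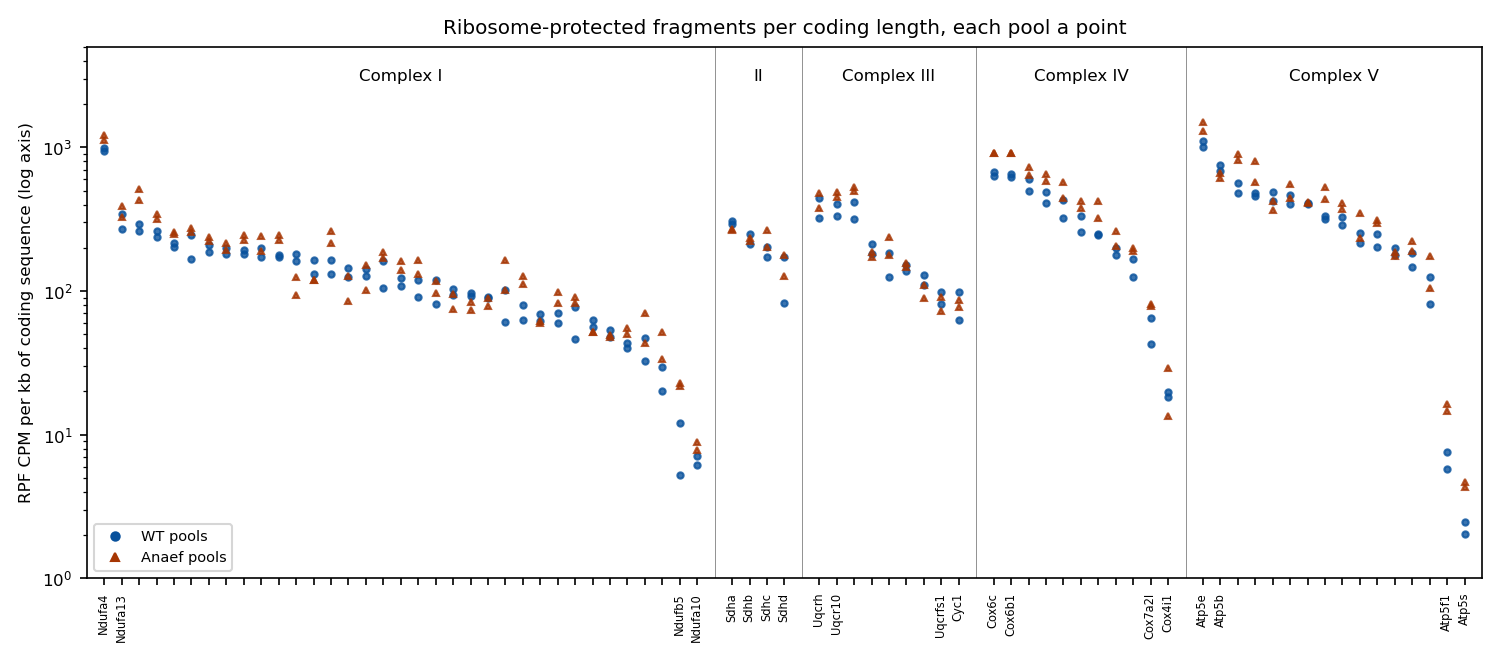
RPF CPM per kilobase of coding sequence (log axis) for the 75 subunit genes, ordered within each complex by the WT mean and named at the 2 highest and 2 lowest of each, with WT pools as circles and Anaef pools as triangles. Ndufa4 and Atp5e lie highest, near 1000, and Ndufa10, Ndufb5, Cox4i1, Atp5f1 and Atp5s are the lowest genes of their complexes.

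The ratio of RPF to total RNA, a measure of ribosome occupancy per message, was high for most subunits in both genotypes. In WT, 60 of 75 members (80%) were called higher in RPF than in total RNA and 6 (8%) lower, at an adjusted p under 0.05 (edgeR quasi-likelihood test). Over all 17775 genes tested the shares were 19.6% and 54.4%. In Anaef, 58 of 75 members (77.3%) were called higher and 5 (6.67%) lower, against 16.4% and 50.8% of 18032 genes. The median log2 ratio was 1.57 for the members and -1.62 for all genes in WT, and 1.80 and -1.79 in Anaef. Many of the other genes are non-coding, and among nuclear protein-coding genes alone 27.7% were called higher and 38.4% lower in WT, and 21.8% and 34.8% in Anaef. In that fit the medians were 1.63 for the members and -0.30 for all genes in WT. The zero of this ratio is set by the TMM scaling between the assays, so only the position relative to other genes carries meaning. Total RNA and RPF libraries were also made with different kits, so that assay and kit cannot be told apart.

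Complex III had the highest median log2 ratio in WT, at 2.42, with 9 of 9 genes called higher. Complex IV followed at 2.27 with 7 of 11 called higher and 2 lower. Complex I was at 1.51 with 28 of 35 higher and 2 lower, complex V at 1.50 with 14 of 16 higher and 2 lower, and complex II at 1.13 with 2 of 4 higher. In Anaef the medians were 2.06 for complex III, 2.47 for complex IV, 1.87 for complex I, 1.76 for complex V and 1.11 for complex II, with 8 of 9, 7 of 11, 27 of 35, 13 of 16 and 3 of 4 called higher. The spread of a complex's median between libraries was 0.17 to 0.48 (pooled SD). Complexes III and IV, and I and V, did not differ beyond it within WT. Complex IV lay above complex I, and complex V above complex II, by more than either SD. Leaving out a library in WT gave overlapping ranges for complexes II (0.79 to 1.36) and V (1.34 to 1.60). These SDs are of each complex alone, not of a difference between complexes, and the order was not tested. In Anaef, complex II lay below complex V by more than either SD and the other neighbours did not. Complex IV depended on which genes were counted: its only 2 genes with under 5% shared 28-base words, Cox4i1 and Cox8a, had a median of -0.14 in WT and 0.015 in Anaef, a choice made after the data were seen.

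The largest ratios belonged to small subunits. Atp5k, the e subunit at the base of the ATP synthase dimer, had 0.5, 1.3, 4.0 and 1.1 CPM in WT total RNA and 87.6 and 86.2 CPM in WT RPF, and its log2 ratio was 5.04 ± 0.67 (SE, adjusted p = 0.00029). Uqcrb, which binds near the ubiquinone site of complex III, had 2.2, 2.5, 6.8 and 2.8 CPM in WT total RNA against 139 and 105 CPM in RPF. Ndufa5, in the matrix arm of complex I, had 1.7, 1.8, 3.6 and 1.4 CPM against 69.2 and 60.2 CPM. In each of these the lowest RPF pool lay above the highest total RNA library. The log2 ratios were 4.41 for Uqcrb, 4.27 for Ndufa5, 4.26 for Atp5l, 4.06 for Cox5a and 3.72 for Cox7a2. In complex II, Sdhb reached 2.99 and its partner Sdha 1.30, while Sdhc at 0.24 (adjusted p = 0.43) was not called.

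The 6 members called lower in WT came from complexes I, IV and V. Cox7a2l had 118, 241, 272 and 156 CPM in WT total RNA and 14.2 and 21.6 CPM in RPF, with a log2 ratio of -4.19 ± 0.45 (SE, adjusted p = 0.0001). Per kilobase of transcript its mean WT total RNA level, 183 CPM, was the highest of the complex IV genes. Ndufa10, a complex I subunit related to nucleoside kinases, was at -3.29, and Ndufb5, a membrane arm subunit, at -3.24. Atp5f1 was at -2.78, Atp5s at -2.56 and Cox4i1 at -1.66. Atp5s rested on 10 and 5 RPF counts in the WT pools. Of the Ndufb5 coding sequence, 21.9% lies in an exon of Mrpl47 on the other strand, where reads cannot be told apart without strand. Cox7a2l shares 81.7% of its coding 28-base words with other genes and Atp5f1 63.8% with 4 other genes, against 0.42% for Cox4i1, 1.2% for Ndufa10 and 0% for Ndufb5 and Atp5s. In Anaef the same call was made for Cox7a2l (-4.19), Ndufa10 (-2.96), Ndufb5 (-1.94), Atp5f1 (-1.77) and Cox4i1 (-1.59), while Atp5s at -1.15 (adjusted p = 0.27) did not pass. Across the 75 members the ratios of the genotypes had a Spearman correlation of 0.94, as a description, since the genes share libraries.

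**Figure D2:**
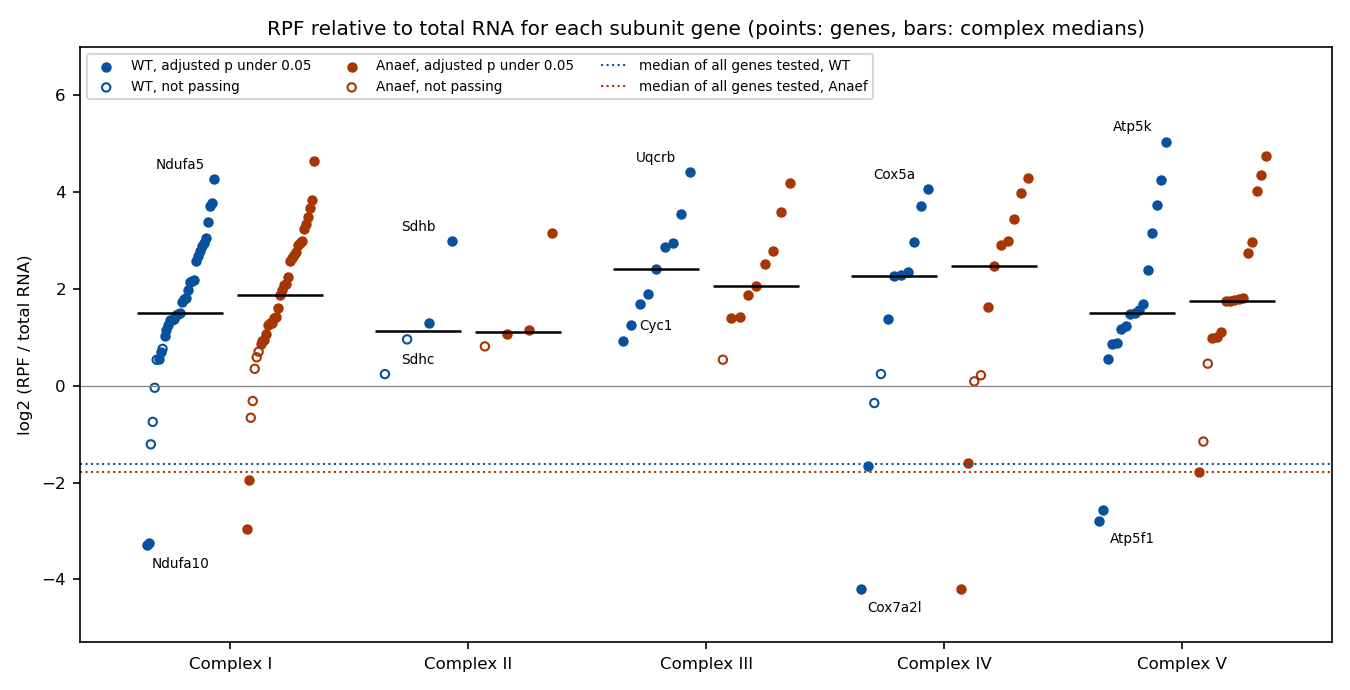
Log2 ratio of RPF to total RNA for each subunit gene by complex, WT in blue and Anaef in brown, with filled points for an adjusted p under 0.05, bars for complex medians and dotted lines for the median of all genes tested. Complex medians lie between 1.11 and 2.47, and Cox7a2l, Ndufa10, Ndufb5 and Atp5f1 fall far below them in both genotypes.

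The members are short, with coding sequences of 156 to 2181 bases and a median of 429, and the ratio moved with length. The Spearman correlation of the WT log2 ratio with coding length was -0.33 over the members and -0.02 over 11896 nuclear protein-coding genes. With transcript length it was -0.34 and -0.20. In the 17 members with transcripts under 600 bases the median WT ratio was 2.27, and in the 178 other genes of that length it was 1.74. Between 600 and 1000 bases the medians were 1.99 (26 members) and 0.68 (536 other genes), between 1000 and 2000 bases 1.43 (26 members) and 0.13 (2466 genes), and above 2000 bases 1.09 (6 members) and -0.57 (8641 genes). Members were above other genes in each of these bins, by the least among the shortest transcripts. With a coding-length trend removed from each library, the WT median was 1.48 for the members, and complex IV was at 1.21. The median of all genes in that fit was 0.11. That fit held only genes with a coding sequence, so 0.11 does not compare with the median of all genes given above. Sharing of 28-base words had a Spearman correlation of 0.03 with the ratio over the members.

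Genotype was compared first in total RNA, where no subunit gene passed the test. Of 75 members, 0 were called higher and 0 lower, while over 17876 genes 0% were called higher and 0.0224% lower. At an unadjusted p under 0.05 there were 0 members in either direction, against 2.73% higher and 2.89% lower of all genes. No member had all 4 Anaef libraries above or below all 4 WT libraries, which 1.58% and 2.01% of genes did, and 42 of 75 (56%) had a difference above 0, against 50.7%. The median log2 difference was 0.05 for the members and 0.01 for all genes. By complex it was -0.02 in I, -0.13 in II, 0.37 in III, 0.11 in IV and 0.07 in V, with pooled SDs of 0.25 to 0.45 between libraries, so that none exceeded the spread. All subunits together took 0.355%, 0.479%, 0.525% and 0.417% of nuclear protein-coding counts in WT replicates 1 to 4 and 0.405%, 0.385%, 0.452% and 0.506% in Anaef replicates 5 to 8.

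Values of the members with the smallest p show how wide the groups were. Atp5b had 333, 403, 330 and 478 CPM in WT and 312, 249, 332 and 315 CPM in Anaef, and its log2 difference was -0.35 ± 0.16 (SE, adjusted p = 0.88). Its partner Atp5a1 had 133, 188, 165 and 138 CPM in WT and 146, 221, 197 and 201 CPM in Anaef, a difference of 0.29 ± 0.17 (SE, adjusted p = 0.92). The catalytic pair thus had estimates on opposite sides of 0, and both pairs of groups overlapped. Cox7a2l had 226, 295, 281 and 357 CPM in Anaef, against the WT values above, a difference of 0.56 (adjusted p = 0.88). Ndufa2, an accessory subunit of the complex I matrix arm, was at 5.4, 14, 17.6 and 8.1 CPM in WT and 23.2, 15.8, 16.2 and 21.1 in Anaef, a difference of 0.76 (adjusted p = 0.89). Ndufa7 was at -0.77, Cox7b at -0.41, Sdhb at -0.23, Sdhc at -0.29, Uqcrb at 0.66 and Uqcr10 at 0.48, none of them passing.

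**Figure D3:**
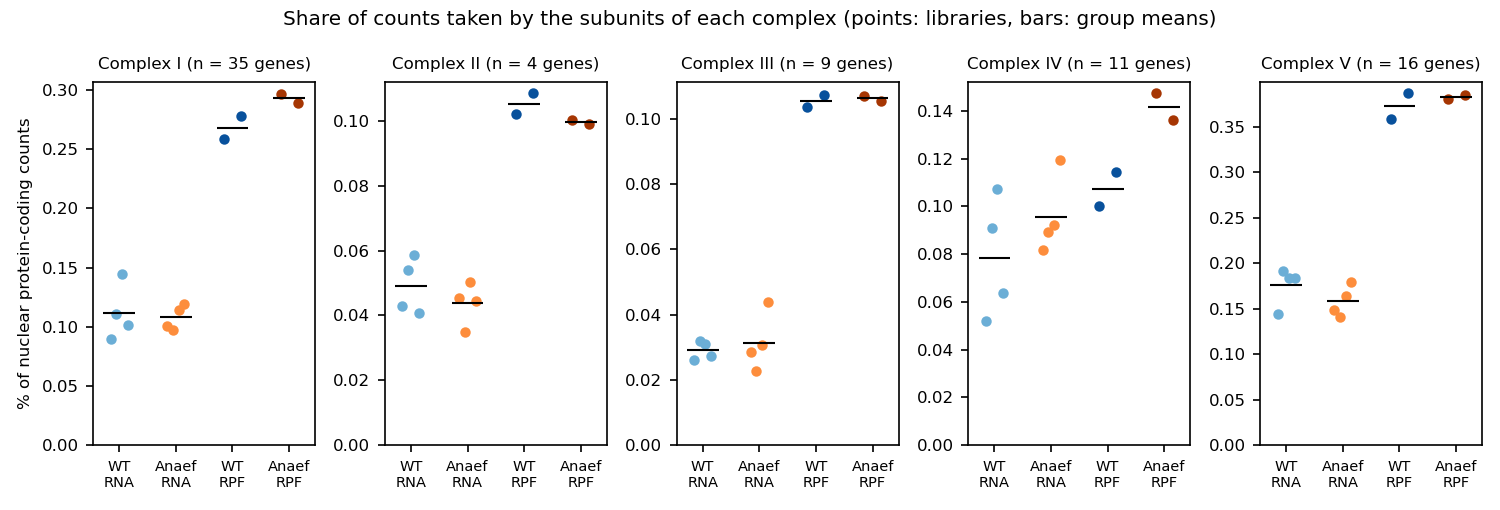
Share of nuclear protein-coding counts taken by the genes of each complex (percent, axes from 0) in 8 total RNA and 4 RPF libraries, with points for libraries and bars for group means. In RPF the Anaef pools lie above the WT pools for complexes I and IV, below them for complex II, and overlap them for complexes III and V; in total RNA the genotypes overlap for every complex.

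In RPF most subunits had a higher estimate in Anaef, and none passed the adjusted threshold. Of 74 members tested (Atp5s had too few counts), 0 were called in either direction, and of 9710 genes 0% were called higher and 0% lower. Both Anaef pools lay above both WT pools for 41 of 74 members (55.4%), against 22.3% of all genes tested, and below for 10 (13.5%), against 22.5%. At an unadjusted p under 0.05, 18 members (24.3%) were higher and 1 (1.35%) lower, against 4.92% and 6.93% of all genes, and 56 (75.7%) had a difference above 0, against 50.8%. The median log2 difference was 0.33 for the members and 0.01 for all genes. Without WT pool 1B the unadjusted counts were 11 members higher and 2 lower, against 3.3% and 4.63% of all genes. Without 2B they were 19 and 0, against 4.65% and 6.56%. Without Anaef pool 3B they were 12 and 2, against 3.7% and 6.68%, and without 4B 11 and 0, against 2.23% and 3.25%. With DESeq2, 6 members (Atp5l, Ndufa1, Cox6b1, Cox6c, Atp5j and Ndufb7) and 0.721% of all genes were called higher. The edgeR test without a filter on low counts also called 6 members (Ndufb5, Atp5l, Ndufa1, Atp5f1, Ndufa7 and Ndufb7), beside 0.863% of all genes, while limma-voom called 0 members.

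In complex IV no gene passed the test. All 11 had a difference above 0, against 50.8% of all genes tested. In 10 of them both Anaef pools lay above both WT pools, against 22.3% of all genes. The complex took 0.100% and 0.114% of nuclear protein-coding counts in the WT pools and 0.147% and 0.136% in the Anaef pools. Its median log2 difference was 0.45, with a pooled SD of 0.19, and leaving out a pool gave 0.26 (without WT pool 1B) to 0.58 (without 2B). Cox6b1, which faces the intermembrane space, had 169 and 160 CPM in WT and 236 and 237 CPM in Anaef, a log2 difference of 0.52 ± 0.13 (SE, adjusted p = 0.34). Cox6c had 144 and 152 CPM in WT and 208 and 208 CPM in Anaef, a difference of 0.49 ± 0.14 (SE, adjusted p = 0.34). The exception to the separation was Cox4i1, with 10.0 and 9.2 CPM in WT and 6.9 and 14.7 CPM in Anaef.

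In complex V the small subunits and the catalytic pair had estimates on opposite sides of 0. Atp5l, the g subunit of the membrane part, had 149 and 176 CPM in WT RPF and 251 and 278 CPM in Anaef, a log2 difference of 0.71 ± 0.15 (SE, adjusted p = 0.34). Atp5f1 had 4.4 and 5.8 CPM in WT and 12.6 and 11.2 CPM in Anaef, a difference of 1.23 ± 0.33 (SE, adjusted p = 0.34), on 30, 24, 44 and 32 counts. Atp5l shares 100% of its coding 28-base words with other genes and Atp5f1 63.8%. Atp5a1 had 707 and 816 CPM in WT and 605 and 697 CPM in Anaef, a difference of -0.23 (adjusted p = 0.57). Atp5b had 1092 and 1203 CPM in WT and 967 and 1055 CPM in Anaef, a difference of -0.18 (adjusted p = 0.63). Without Atp5a1 and Atp5b the complex took 0.159% and 0.163% of counts in WT and 0.208% and 0.199% in Anaef. With them it took 0.358% and 0.387% in WT and 0.381% and 0.385% in Anaef, so the catalytic pair set whether the groups overlapped. The genes of the c ring were at 0.32 (Atp5g1), 0.45 (Atp5g2) and 0.56 (Atp5g3), and none passed.

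Complex I had a median log2 difference of 0.34 over 35 genes, with 25 above 0, against 50.8% of all genes tested. In 19 both Anaef pools lay above both WT pools and in 6 both lay below, against 22.3% and 22.5% of all genes. Ndufa1, a small subunit of the membrane arm encoded on the X chromosome, had 55.1 and 61.7 CPM in WT and 90.6 and 109 CPM in Anaef, a difference of 0.77 ± 0.17 (SE, adjusted p = 0.34). Ndufa7 had 21.3 and 27.2 CPM in WT and 43.0 and 38.0 CPM in Anaef, a difference of 0.75 (adjusted p = 0.34). Ndufa6, a matrix arm subunit named here after its values were seen, was the 1 member lower at an unadjusted p under 0.05, with 63.8 and 71.1 CPM in WT and 49.0 and 36.6 CPM in Anaef. Core genes were at -0.20 (Ndufs1), -0.11 (Ndufs3), 0.09 (Ndufs7), 0.38 (Ndufs8), -0.10 (Ndufv1) and -0.26 (Ndufv2), and none passed. Complexes II and III had medians of 0.13 and 0.07, and of -0.042 and -0.0030 without WT pool 1B. Sdha had 582 and 609 CPM in WT and 534 and 539 CPM in Anaef (log2 difference -0.15), and Sdhc had 88.1 and 103 CPM against 104 and 135 CPM (0.32). Uqcrb had 139 and 105 CPM in WT and 177 and 166 CPM in Anaef (0.49), and Uqcr10 had 78.1 and 63.9 CPM against 87.2 and 93.5 CPM (0.35), none of them passing.

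**Figure D4:**
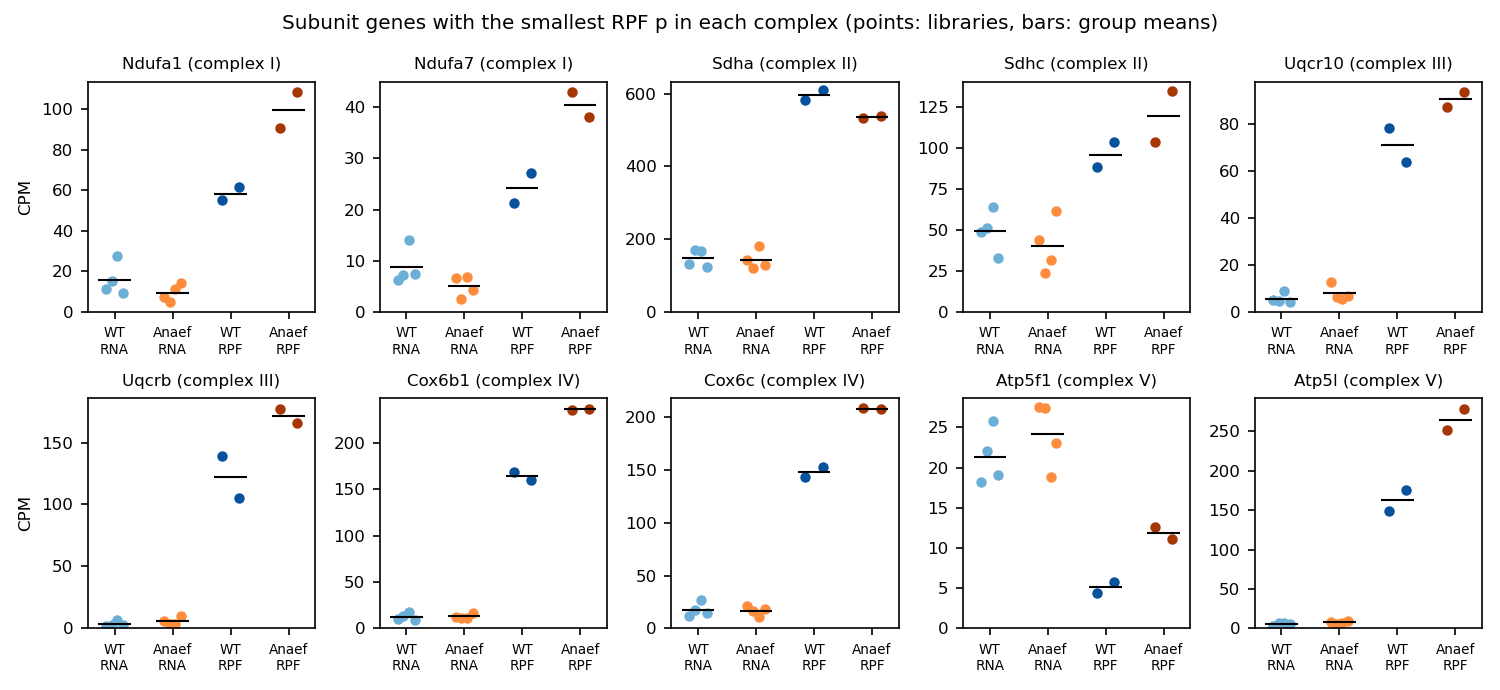
CPM in total RNA and RPF, each scaled within its assay, of the 2 genes of each complex with the smallest RPF p, with points for libraries and bars for group means on axes that start at 0. In RPF the Anaef pools lie above the WT pools for each gene except Sdha, where they lie below, and in total RNA the genotypes overlap.

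The RPF difference followed coding length as well. Its Spearman correlation with coding length was -0.54 over 74 members and -0.10 over 8994 nuclear protein-coding genes. Among coding sequences under 300 bases the median log2 difference was 0.41 for 19 members and 0.39 for 156 other genes. Between 300 and 600 bases it was 0.41 for 35 members and 0.23 for 1016 other genes, between 600 and 1200 bases -0.02 for 11 members and -0.02 for 2519 genes, and between 1200 and 2400 bases -0.18 for 9 members and -0.09 for 3331 genes. Short genes outside the module were thus shifted in the same direction, and the Atp5a1 and Atp5b genes are among the long members. With a coding-length trend removed from each library, the members' median was 0.08, and complexes I, III, IV and V were at 0.093, -0.040, 0.12 and 0.067. The unadjusted count was 5 members higher and 1 lower, against 3.33% and 6.41% of the 9419 genes with a coding sequence in that fit.

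**Figure D5:**
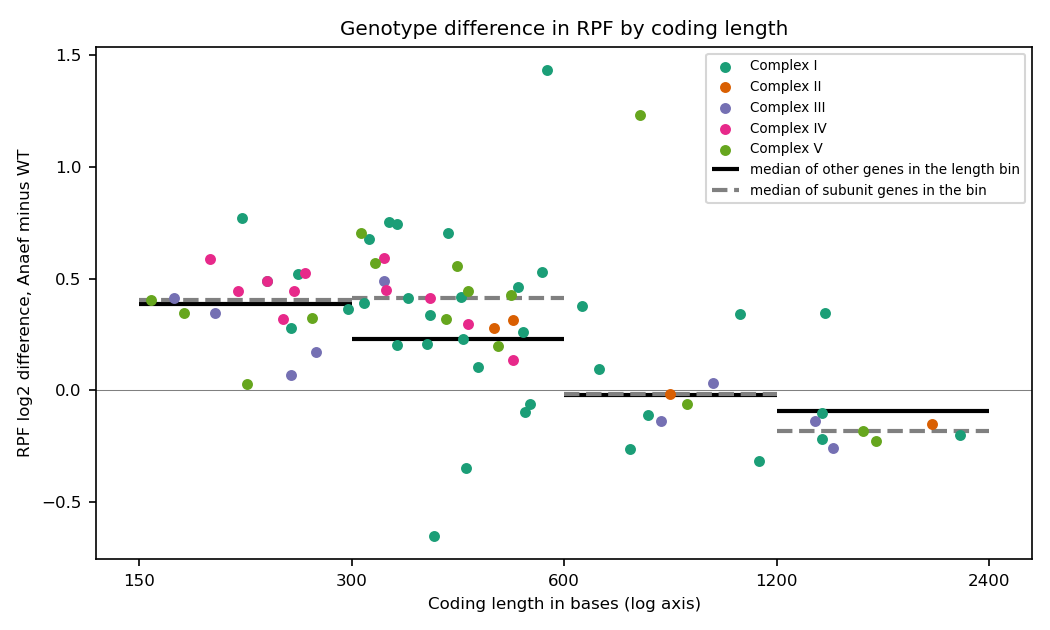
RPF log2 difference (Anaef minus WT) of 74 subunit genes against coding length (log axis), coloured by complex, with the median of other genes (black) and of subunit genes (grey dashes) in each length bin. The 19 subunit genes under 300 bases have a median of 0.41 beside 0.39 in other genes of that length.

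Whether the RPF difference went beyond that in total RNA was asked with the interaction of genotype and assay over all 12 libraries. No member passed: the adjusted p was near 1 throughout. At an unadjusted p under 0.05, 4 of 75 members (5.33%) were higher and 0 lower, against 1.59% and 1.76% of 19031 genes. The 4 were Atp5f1 at 1.03 ± 0.39 (SE), Ndufa7 at 1.51 ± 0.61, Atp5j, the peripheral stalk subunit F6, at 0.65 ± 0.27 and Ndufa1 at 1.52 ± 0.67. For Ndufa1 and Ndufa7 the total RNA estimates were below 0 (-0.75 and -0.77) while the RPF estimates were above it, and WT replicate 3 was the highest total RNA library of both, at 27.8 and 14 CPM. The median was 0.16 for the members and 0.01 for all genes, and by complex 0.17 in I, 0.16 in II, -0.20 in III, 0.26 in IV and 0.27 in V, each within the pooled SD of 0.23 to 0.41 except complex V at 0.23. Without WT total RNA replicate 3 the members' median was -0.030, and complexes I to V were at 0.0048, 0.017, -0.34, 0.083 and 0.0021. With the coding-length trend removed the members' median was -0.051 and complex V was at -0.043. Medians from DESeq2 were 0.21 for the members and 0.32 for all genes, and from limma-voom 0.15 and 0.36. Whether the members lay above or below all genes thus depended on the tool. Of the other members with the smallest p, Sdhb was at 0.20, Sdhc at 0.59, Uqcrc1 at -0.45, Uqcrc2 at -0.35, Cox7a2 at 0.60 and Cox7b at 0.72.

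Genes that build or regulate the chain were looked at beside its subunits. Of 15 complex I assembly factors, 6 complex III factors, 17 complex IV factors, 4 each for complexes II and V, the 13 mitochondrially encoded subunits and 12 regulators of mitochondrial biogenesis tested in total RNA, 0 were called by genotype, and 0 of those tested were called in RPF or in the interaction. In RPF, Cox20, a complex IV assembly chaperone, had the smallest p of its list, at 0.71 (adjusted p = 0.34), and Gabpb1, a partner of the ETS factor GABPA, of the regulators, at -0.88 (adjusted p = 0.34). In the ratio of RPF to total RNA, 80% of the subunits were called higher in WT. Of all genes tested in WT, 19.6% were called higher and 54.4% lower. With nuclear protein-coding genes alone the shares were 27.7% and 38.4%. The lists gave the following, with no test made between lists. Assembly factors of complex I had 4 of 15 called higher and 4 lower in WT, with a median of 0.53, and those of complex IV 6 of 17 higher and 4 lower, with a median of 0.60. Those of complex III had 2 of 6 higher and 3 lower with a median of -0.69, and the regulators 3 of 12 higher and 3 lower with 0.20. Those of complex II had 2 of 4 higher and 0 lower, and those of complex V 2 of 4 higher and 1 lower. All 13 mitochondrially encoded subunits were called lower in both genotypes, with medians of -5.79 in WT and -5.48 in Anaef. They are translated on ribosomes of another kind. Mitochondrial counts, which may include other mitochondrial genes, were 16.4% to 27.8% of total RNA counts and at most 0.98% of RPF counts. What set these low ratios was not tested.

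Promoters were read because nuclear respiratory factor 1 (NRF1) and ETS factors such as GABPA are known regulators of this gene set. RefSeq promoter sequences on GRCm38.p6 were matched for 62 of 75 members, and the 250 bases before each start were searched on both strands for GCATGCG, the NRF1 core, and CCGGAAG, an ETS core. The NRF1 core occurred in 9 of 62 members (14.5%) and in 4.24% of 17492 protein-coding genes, and the ETS core in 12 of 62 (19.4%) and in 10.2%. Both occurred in 3 members (Cox6a1, Atp5j and Atp5l), or 4.84%, against 0.675% of all genes. Below are 60 bases around the NRF1 core of Atp5l, which had the smallest RPF genotype p of all members, and of Cox6a1, a complex IV subunit. Capitals mark the motif letters on either strand. In both, the core overlaps its own reverse complement, and in Atp5l the ETS core lies on the opposite strand as CTTCCGG.
Atp5l: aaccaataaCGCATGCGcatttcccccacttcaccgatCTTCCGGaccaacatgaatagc
Cox6a1: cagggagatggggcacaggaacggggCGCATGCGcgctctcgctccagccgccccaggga
These lie at chr9:44920933-44920992 and chr5:115349086-115349145, both on the minus strand, 250 to 191 and 187 to 128 bases before the start. By complex, the NRF1 core was found in 3 of 31 complex I, 1 of 3 complex II, 0 of 5 complex III, 1 of 9 complex IV and 4 of 14 complex V promoters. A match describes letters in a window and shows no binding in these cells.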

How the data were processed

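Members and gene lists were chosen with earlier results of these data known. The deposited table holds whole-number counts without normalization, and its RPF columns are marked as masked, per the file headers. TopHat 1.4.1, Bowtie 0.2.17 and the build GRCm38 appear in the submitters' processing notes. The counting method, its use of strand and the masked features: not given in the sources used here. Total RNA and RPF libraries were prepared with different kits, per the labels.

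Counts were fitted across all genes in 5 comparisons with edgeR 4.0.16 in R 4.3.3 (TMM scaling, filterByExpr, quasi-likelihood F test, Benjamini-Hochberg adjustment at 0.05). Each standard error is the fold change over the root of F. CPM use the TMM-scaled library size within an assay, and a fitted ratio of RPF to total RNA has its own scaling, so it is not the quotient of printed CPM. Lengths come from a single transcript per gene in GENCODE M21. Transcripts tagged as APPRIS principal came first, then those of the basic set, then the longest coding sequence. Shares use the nuclear protein-coding counts of a library. The functions were tested on simulated data.

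Named members were those called where at most 12 were, otherwise the 3 largest per direction and complex, the 2 with the smallest p per complex where none was called, the highest and lowest RPF level per complex, the Atp5g and Cox7a2 paralogs, the catalytic pair of complex V and the core of complex I. Ndufa13, Atp5c1, Atp5d, Ndufa6 and other members outside this rule were named after their values were seen. The values of 1 core gene of complex I are not reported here. The alternatives tried were DESeq2 1.42.0, no filter on low counts, size factors by RLE, nuclear protein-coding genes only, limma-voom (limma 3.58.1), a removed coding-length trend (lowess, span 0.3), Ndufa4 under complex IV and leaving out each library. The fits with the trend removed held only genes with a coding sequence.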

Additional observations from a re-analysis of the deposited data

Results flagged for a closer look

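Among 104 groups of 4 total RNA libraries checked for a library far from the others (complex shares and the values of 46 named members), 9 were singled out, where chance alone gives about 1 in 20. Each is given in CPM. WT replicate 3 stood above the other WT libraries for Atp5e (13.3), Ndufa7 (14), Uqcr10 (8.78) and Uqcrb (6.80), and below them for Ndufv2 (13.1). Anaef replicate 5 was high for Uqcr10 (12.8). Anaef replicate 6 was high for Atp5s (8.81) and low for Uqcrh (17.2), and Anaef replicate 8 was high for Cox5a (7.21). WT replicate 3 is also the shallowest total RNA library with the largest mitochondrial share; the part of either in these values was not tested. No difference between genotypes in the ratio of RPF to total RNA passed the test for any member.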

How the results depend on the processing

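No paired analysis was possible because the groups share no replicate numbers. In total RNA, DESeq2 called 29 genes higher and 91 lower by genotype, nuclear protein-coding genes alone gave 0 lower, limma-voom gave 2, and leaving out a library gave 0 to 3; the members stayed at 0. In RPF, DESeq2 and the absence of a filter each called 6 members higher, and over all genes they called 70 and 127 higher and 127 and 387 lower, against 2 and 4 with nuclear protein-coding genes alone. Leaving out a pool gave 0 to 16 genes higher and 0 to 195 lower, with the upper values without Anaef pool 3B. For the genotype difference in RPF relative to total RNA, DESeq2 called 4 genes higher and 6 lower, and leaving out a library gave 0 to 1 higher.

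With the coding-length trend removed, the RPF medians of complexes I, III, IV and V were 0.093, -0.040, 0.12 and 0.067, Uqcr10 turned to -0.040, and the complex V median relative to total RNA was -0.043. Members with few shared 28-base words gave RPF medians of 0.24 in complex I and -0.14 in complex III. Leaving out a pool gave 0.23 to 0.32 in complex I and -0.042 to 0.16 in complex II, and leaving out a library moved complex V relative to total RNA between 0.0021 and 0.38.

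For the ratio of RPF to total RNA, genes called lower in WT numbered 4497 among nuclear protein-coding genes. With the trend removed they numbered 3852 among genes with a coding sequence. In Anaef these were 4129 and 3357, and 5237 with limma-voom over all genes. Members with few shared words gave WT medians of 1.89 in complex III, -0.14 in IV and 1.98 in V, and Anaef medians of 1.41 in I, 0.015 in IV and 2.24 in V. With the trend removed, complex IV was at 1.21 in WT and 1.33 in Anaef, and complex I at 1.53 in Anaef. Leaving out a library gave 0.79 to 1.36 for complex II in WT, 1.60 to 2.00 for complex V in Anaef, 3 to 6 members lower and 1942 to 3052 genes higher in Anaef. Per kilobase of coding sequence in place of transcript, the highest WT total RNA levels were 131, 96.9, 97.1, 590 and 243 in complexes I to V. Among values of named members, 600 kept their call and direction and 24 lost the call when a library was left out; under the other alternatives 536 kept both, 9 gained the call, 7 lost it and 1 reversed. Where a value moved, the cause was not tested.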

Other observations

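Ndufb2 of complex I and Atp5o, the oligomycin sensitivity subunit of complex V, had no row of their own, since the table joined them with other identifiers. The joined row with Ndufb2 held 666, 934, 239 and 358 counts in WT total RNA, 305, 537, 690 and 604 in Anaef total RNA, 473 and 272 in WT RPF and 202 and 173 in Anaef RPF. The joined row with Atp5o held 1545, 1903, 664 and 1070 counts in WT total RNA, 1142, 1640, 1879 and 1825 in Anaef total RNA, 349 and 251 in WT RPF and 269 and 175 in Anaef RPF. Neither entered a comparison, because the counts cannot be assigned to one gene.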
